A study of Homo sapiens with 9 samples.

Results

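G1 cyclins, their kinases and their brakes were followed as 10 genes across the 3 genotypes of an H358 RNA-seq series. They are the D cyclins CCND1, CCND2 and CCND3, cyclin E (CCNE1), the cyclin-dependent kinases CDK2, CDK4 and CDK6, the retinoblastoma gene RB1, and the inhibitors CDKN1B and CDKN2B. The genes were taken by name, 10 of the 58237 genes to which reads were summed. All 10 were found, and 9 passed the filter on low counts that left 18205 genes for testing. CCND2 did not pass.

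H358 is a human cell line from a non-small cell lung carcinoma, kept in RPMI with 10% fetal bovine serum. The 3 genotypes were sequenced from total RNA, with 3 libraries each: the parental line, cells in which CRISPR had knocked out BRG1 (gene SMARCA4), and cells in which it had knocked out BRM (gene SMARCA2). These 2 proteins are the ATPase motors of SWI/SNF remodellers, and a complex holds either of them. Neither the origin of the replicates nor whether a knockout was 1 clone is stated in the labels, so the p-values rest on a spread between samples that may be technical. The parental line was the only control, and effects of editing or of clonal growth cannot be told apart from those of the lost gene. Both knockouts were compared with the same 3 parental libraries. In bulk RNA, fewer cells with a transcript and less transcript per cell cannot be told apart.

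In G1, D cyclins bind CDK4 and CDK6 and start the phosphorylation of RB1, the pocket protein that holds E2F transcription factors in check. Cyclin E with CDK2 continues that phosphorylation, E2F factors are released, and genes for DNA replication are transcribed. The INK4 protein p15, the product of CDKN2B, keeps D cyclins off CDK4 and CDK6, and the CIP/KIP protein p27, the product of CDKN1B, binds cyclin E with CDK2. CDKN2B lies beside CDKN2A on 9p21, a region that is often deleted in tumours.

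Promoter windows from RefSeq (GRCh38.p14) are shown for CCND3, whose 2 starts are compared below, for CCNE1, which had the widest gap between the knockouts, and for CDKN2B, which rose after BRG1 loss. These 3 were chosen after the values were seen. Each window runs from 250 bases before to 50 bases after an annotated start and is written 5′ to 3′ on the gene's strand. Capitals mark GC boxes, the letters GGGCGG on either strand. CCND3 has an upstream window at chr6:42048639-42048938 and a downstream window at chr6:41941759-41942058, both on the minus strand. The window of CCNE1 is chr19:29811741-29812040 on the plus strand, and that of CDKN2B is chr9:22009256-22009555 on the minus strand.
CCND3 upstream: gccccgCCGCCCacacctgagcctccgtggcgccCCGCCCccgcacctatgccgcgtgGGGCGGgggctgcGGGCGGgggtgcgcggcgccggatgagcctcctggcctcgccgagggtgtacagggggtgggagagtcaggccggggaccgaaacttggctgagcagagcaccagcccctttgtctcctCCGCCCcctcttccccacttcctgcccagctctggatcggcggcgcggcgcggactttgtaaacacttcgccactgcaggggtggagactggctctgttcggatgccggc
CCND3 downstream: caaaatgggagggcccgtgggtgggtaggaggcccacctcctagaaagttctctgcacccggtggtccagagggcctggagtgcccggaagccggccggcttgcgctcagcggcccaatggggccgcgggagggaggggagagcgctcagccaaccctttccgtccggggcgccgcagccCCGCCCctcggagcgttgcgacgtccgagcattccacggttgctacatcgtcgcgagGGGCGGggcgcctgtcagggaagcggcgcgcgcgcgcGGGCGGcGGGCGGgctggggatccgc
CCNE1: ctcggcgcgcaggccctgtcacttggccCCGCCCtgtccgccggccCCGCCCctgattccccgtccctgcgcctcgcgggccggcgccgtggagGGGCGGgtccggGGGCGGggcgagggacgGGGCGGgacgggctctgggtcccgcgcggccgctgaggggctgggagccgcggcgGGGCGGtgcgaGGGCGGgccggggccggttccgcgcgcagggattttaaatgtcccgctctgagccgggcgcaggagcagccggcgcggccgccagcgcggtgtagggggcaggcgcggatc
CDKN2B: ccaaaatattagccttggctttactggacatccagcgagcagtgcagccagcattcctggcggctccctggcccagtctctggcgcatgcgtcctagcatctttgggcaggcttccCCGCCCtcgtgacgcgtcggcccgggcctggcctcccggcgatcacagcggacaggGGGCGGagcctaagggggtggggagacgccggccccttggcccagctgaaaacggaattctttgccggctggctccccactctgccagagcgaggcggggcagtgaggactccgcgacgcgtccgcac
The upstream CCND3 window held 5 GC boxes, the downstream window 4, the CCNE1 window 7 and the CDKN2B window 2. A GC box was present in 45.0% of all 35116 RefSeq windows of 300 bases, so its presence does not set these windows apart. RefSeq windows were found for 7 of the 10 members, 10 windows in all. A further 3 motifs were searched on both strands, and none matched in any of the 10 windows: the E2F site (TTTGGCGC, TTTCCCGC, TTTCGCGC or TTTGCCGC), the AP-1 site (TGACTCA) and the CHR element (TTTGAA). These letters occurred in 3.31%, 4.95% and 15.2% of all windows. Only these exact letters were searched, so other forms of the sites would be missed. CCND1, CCND2 and CDK2 had no window. The RB1 window is that of an internal start, with up to 5.95% of RB1 TPM in a library, so the main RB1 promoter was not searched. The remaining CCND3 window held no annotated transcript start.

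The libraries held 31969961 to 40679073 estimated reads. Levels across libraries are counts per 1e6 reads after TMM scaling (CPM), and levels of different genes are compared as TPM, which also divides by transcript length. TPM carries no TMM scaling, so where genotypes are set side by side in TPM, their differences can depart from those in CPM. SMARCA4 was at 244, 216 and 212 CPM in the parental libraries, at 23.9, 21.2 and 23.6 CPM in the BRG1 knockout and at 240, 245 and 249 CPM after BRM loss. SMARCA2 was at 49.3, 58.0 and 55.5 CPM in the parental libraries, at 42.4, 32.02 and 61.3 CPM after BRG1 loss and at 10.3, 12.01 and 9.36 CPM after BRM loss. Each targeted gene was thus low in all 3 libraries of its own knockout. BRG1 knockout replicate 3 stood apart from its group: 82 ribosomal protein genes took 5.42% of its reads, against 9.57% and 10.1% in replicates 1 and 2 and 4.57% to 5.36% in the parental libraries. The member values that it moves most, those of CDK6 and RB1, are given with and without it, and also without parental replicate 1, which stood apart in earlier work on these data. SMARCA2 after BRG1 loss had a log2 fold change of -0.26 (adjusted p = 0.35 by edgeR), and -0.62 (adjusted p = 0.012) without BRG1 knockout replicate 3. Summed epithelial markers (10 genes, among them EPCAM, CDH1 and KRT8) ranged over 6999 to 7345 CPM in the parental libraries, 447 to 1380 CPM in the BRG1 knockout and 7037 to 8130 CPM in the BRM knockout. Of these 10, 9 were called lower after BRG1 loss (adjusted p under 0.05 by edgeR), as were 21.9% of all tested genes. Summed fibroblast markers (8 genes) ranged over 32.2 to 63.3, 393 to 1031 and 82.7 to 127 CPM in the same order of genotypes, blood markers (9 genes) over 16.1 to 22.4, 9.99 to 13.5 and 18.4 to 58.5 CPM, and endothelial markers (7 genes) over 5.30 to 9.92, 4.84 to 5.06 and 48.3 to 75.6 CPM. In the BRG1 knockout the fibroblast sum was mostly COL1A1 (208 to 283 CPM), COL3A1 (84.5 to 739 CPM) and PDGFRB (24.8 to 72.7 CPM). PDGFRA averaged 4.31 CPM there against 0.95 CPM in the parental line, and DCN 0.30 against 0.010 CPM. LUM (12.7 against 12.2 CPM), COL1A2 (0.63 against 0.88 CPM) and FAP (0.16 against 0.18 CPM) stayed near the parental means. In the BRM knockout COL1A1 made up most of the fibroblast sum, with 73.5 to 112 CPM. In the BRM knockout 1 gene made up most of the blood sum, CD68 with 16.0 to 54.8 CPM. Most of the endothelial sum there was KDR, with 43.7 to 72.5 CPM. The mean of VWF was 2.88 CPM there against 0.85 CPM in the parental line, and that of CDH5 0.65 against 0.28 CPM. PECAM1 (0.17 against 0.57 CPM), TEK (0.18 against 0.49 CPM), CLDN5 (0.074 against 0.18 CPM) and ERG (0.0084 against 0.020 CPM) had lower means. Of the 5 tested endothelial markers, 2 were called higher after BRM loss, KDR and VWF, where 21% of all genes were called higher. CD3D and MS4A1, which define T and B cells, were at 0 in all 9 libraries. What part these differences have in the results below was not tested.

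After BRG1 loss, 4 of the 9 tested members changed at an adjusted p under 0.05 (edgeR quasi-likelihood test, Benjamini-Hochberg adjustment over all 18205 genes). CDKN2B rose, CCND1, CCND3 and CDK2 fell, and the other 5 did not pass. The share of members called, 44.4%, was close to the 43.5% called among all genes (21.6% higher and 21.9% lower). After BRM loss, 6 of 9 changed: CDKN1B rose and CCND3, CCNE1, CDK2, CDK4 and RB1 fell, a share of 66.7% against 37.4% of all genes (21% higher and 16.4% lower). The median log2 fold change of the 9 members was -0.21 after BRG1 loss, against -0.0083 over all genes, and -0.76 after BRM loss, against 0.093. The groups did not overlap in CPM for 6 members after BRG1 loss and for 7 after BRM loss, against 53.2% and 58.1% of all genes. Between the knockouts, 6 of 9 members differed, against 45.3% of all genes (21.6% higher and 23.8% lower): CCND3, CCNE1, CDK2, CDK4 and CDKN2B were higher in the BRG1 knockout and CCND1 was lower there. The knockouts did not overlap for 5 members, against 55.1% of all genes.

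**Figure D1:**
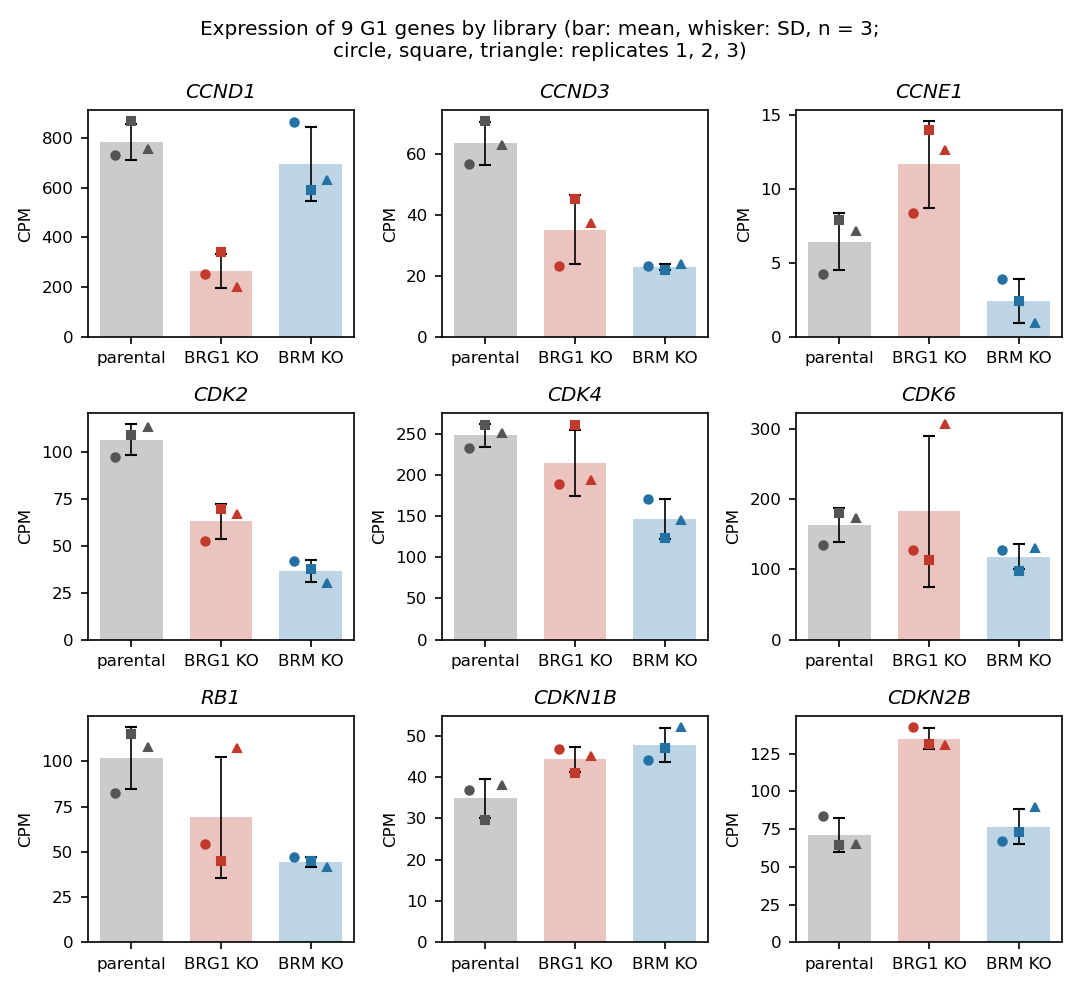
Expression of the 9 tested members in CPM on a linear axis that starts at 0, 1 panel per gene, with the 3 libraries of each genotype as points, the mean as a bar and the SD as a whisker (n = 3). CCND1 is low in the 3 BRG1 knockout libraries alone, CDK2 is lower in both knockouts, and BRG1 knockout replicate 3 stands above its group for CDK6 and RB1.

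CCND1 (chr11:69641087-69654474 on GRCh38, plus strand), the main D cyclin of this line, stood at 733, 868 and 754 CPM in the parental libraries. The BRG1 knockout had 251, 340 and 202 CPM and the BRM knockout 864, 590 and 633 CPM. All BRG1 knockout libraries lay below all others, and the BRM knockout overlapped the parental range. CCND1 fell after BRG1 loss to 0.337 of the parental mean, a log2 fold change of -1.57 ± 0.22 (approximate SE, adjusted p = 2.5e-04 by edgeR). After BRM loss the log2 fold change was -0.17 ± 0.21 (adjusted p = 0.55 by edgeR). The knockouts differed from each other by -1.40 ± 0.22 on the log2 scale, BRG1 minus BRM (adjusted p = 4.4e-04 by edgeR). All 3 CCND1 statements kept their direction and their side of the threshold in the 20 alternative settings.

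Salmon gave part of the CCND1 reads to a short transcript annotated as a retained intron (CCND1-204). Its share of CCND1 TPM was 25.4%, 11.6% and 16.8% in the parental libraries, 0.38%, 0.081% and 8.17% in the BRG1 knockout and 6.79%, 20.0% and 11.5% in the BRM knockout. The BRG1 knockout libraries held the lowest share as a group, although its replicate 3 was above BRM knockout replicate 1. Coding transcripts alone summed to 263 ± 35.8 TPM (SD, n = 3) in the parental libraries, 79.1 ± 11.5 TPM in the BRG1 knockout and 227 ± 52.7 TPM in the BRM knockout. The order of the groups was thus the same without the retained intron.

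CCND3 (chr6:41934933-42050357, minus strand), the second D cyclin detected, was at 56.7, 70.9 and 63.1 CPM in the parental libraries. It was at 23.1, 45.2 and 37.3 CPM in the BRG1 knockout and at 23.2, 22.01 and 23.96 CPM after BRM loss. Every knockout library lay below every parental library, while the 2 knockouts overlapped. The log2 fold change was -0.85 ± 0.22 after BRG1 loss (adjusted p = 0.0087 by edgeR) and -1.46 ± 0.22 after BRM loss (adjusted p = 6.9e-04). The difference between the knockouts, 0.61 ± 0.22, passed at an adjusted p of 0.040 but was lost in 11 of the 20 alternative settings.

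CCND3 is transcribed from the upstream and downstream starts whose windows are printed above, and the downstream start carried most of its RNA in the parental line. Transcripts from the downstream start summed to 45.2 ± 7.07 TPM in the parental libraries, 20.2 ± 8.40 TPM in the BRG1 knockout and 10.7 ± 0.59 TPM in the BRM knockout (SD, n = 3). Those that start within the upstream window summed to 7.08 ± 0.77, 4.56 ± 1.46 and 6.14 ± 1.77 TPM in the same order. They took 10.4% to 16.2% of CCND3 TPM in the parental libraries, 12.6% to 22.2% in the BRG1 knockout and 25.1% to 37.2% in the BRM knockout. The BRM knockout range lay above both others, and the BRG1 knockout range overlapped the parental range. CCND3-202, whose start at 42048968 lies just outside that window, is not in these sums. It took a further 3.32%, 0% and 1.19% of CCND3 TPM in the parental libraries. In the BRG1 knockout it took 9.88%, 2.43% and 0.97%, and in the BRM knockout 13.9%, 20.0% and 11.0%. The order of the genotypes in all upstream TPM can therefore not be read from the window alone. These shares come from a model that splits reads between overlapping transcripts, and they were not tested.

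CCND2 (chr12:4273772-4305350, plus strand), the third D cyclin, was all but absent from every genotype. It had 0, 1 and 4 estimated reads in the parental libraries, 0 in each BRG1 knockout library and 2, 0 and 0 in the BRM knockout. A count of 0 over the 3 BRG1 knockout libraries allows a level of up to 0.0271 CPM (3 reads, counting error only). No direction was read from these counts.

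The summed TPM of the 3 D cyclins was 413 ± 45.5 in the parental libraries, 110 ± 14.1 in the BRG1 knockout and 299 ± 38.6 in the BRM knockout (SD, n = 3). These sums are without TMM scaling. The mean of CCND1 after BRG1 loss was 83.7 against 359 TPM but 264 against 785 CPM, a smaller fall in CPM, and the sum was not computed in CPM. CCND1 made up 86.9% ± 0.82 of that sum in the parental libraries, 76.3% ± 5.73 in the BRG1 knockout and 93.0% ± 1.28 in the BRM knockout. CCND3 made up 13.1% ± 0.82, 23.7% ± 5.73 and 6.98% ± 1.28. The 3 ranges of the CCND3 share did not overlap, with 12.5% to 14.0% in the parental libraries, 17.9% to 29.3% in the BRG1 knockout and 5.63% to 8.17% in the BRM knockout. Each difference from the parental share of CCND1 or CCND3 had p = 0.1 in a two-sided exact permutation test (adjusted p = 0.2 over 8 tests), the smallest that 3 against 3 libraries can give, so the design cannot reach 0.05.

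**Figure D2:**
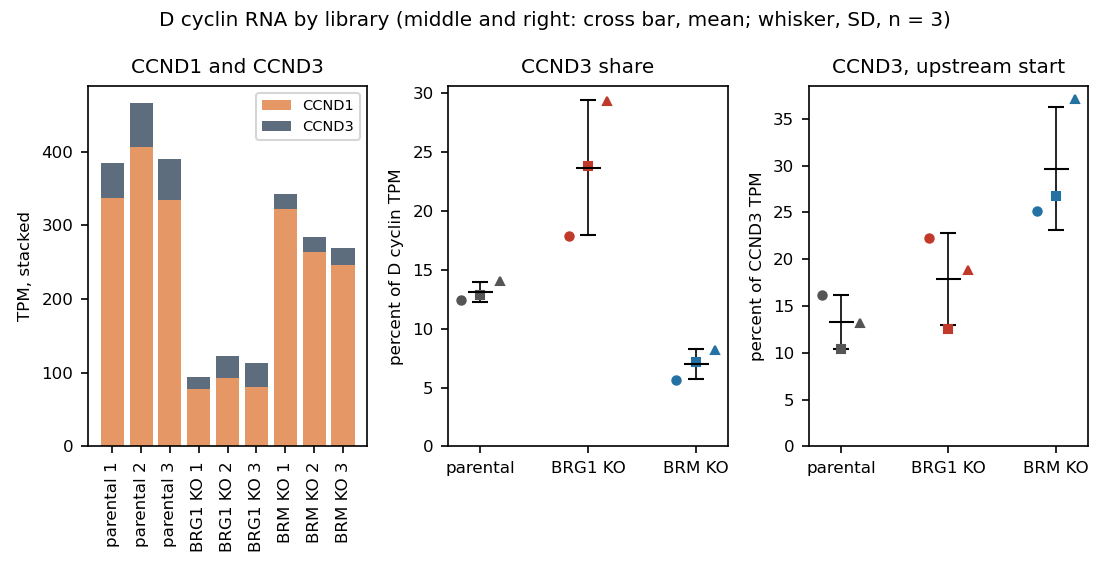
D cyclin RNA by library: stacked CCND1 and CCND3 TPM on the left, and as points the CCND3 share of D cyclin TPM (middle) and the share of CCND3 TPM from transcripts that start within its upstream window (right), with mean and SD (n = 3). The CCND3 share is highest in the BRG1 knockout (17.9% to 29.3%) and lowest in the BRM knockout (5.63% to 8.17%), and the upstream window has its highest shares in the BRM knockout (25.1% to 37.2%).

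CCNE1 (chr19:29811898-29824308, plus strand), the partner of CDK2, had low counts in all groups. It was at 4.24, 7.93 and 7.13 CPM in the parental libraries, at 8.38, 14.0 and 12.6 CPM in the BRG1 knockout and at 3.92, 2.44 and 0.91 CPM after BRM loss. In CPM the 3 groups did not overlap: every BRG1 knockout library lay above, and every BRM knockout library below, the parental range. In TPM the BRG1 knockout, at 6.26 to 12.2, overlapped the parental range of 3.74 to 8.01. The clearest difference was between the knockouts, with a log2 fold change of 2.27 ± 0.46, BRG1 minus BRM (adjusted p = 0.0023 by edgeR, kept in all 20 alternative settings). Against the parental line, the log2 fold change was 0.86 ± 0.44 after BRG1 loss and did not pass (adjusted p = 0.13 by edgeR). CCNE1 fell after BRM loss with a log2 fold change of -1.41 ± 0.45 (adjusted p = 0.030 by edgeR). That call was lost without any 1 of parental replicate 2 (adjusted p = 0.10), parental replicate 3 (0.088), BRM knockout replicate 2 (0.077) or BRM knockout replicate 3 (0.069), and with the replicate number as a block (0.053). Without BRM knockout replicate 1 the value was -2.05 (adjusted p = 0.0098).

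CDK2 (chr12:55966769-55972784, plus strand), the kinase of the G1 to S transition, fell in both knockouts. Its level was 97.3, 109 and 113 CPM in the parental libraries, 52.5, 69.4 and 67.1 CPM in the BRG1 knockout and 42.1, 37.5 and 30.1 CPM in the BRM knockout. The 3 groups did not overlap. The log2 fold change was -0.76 ± 0.17 after BRG1 loss (adjusted p = 0.0040 by edgeR) and -1.54 ± 0.17 after BRM loss (adjusted p = 1.7e-04). The knockouts differed by 0.79 ± 0.17, BRG1 minus BRM (adjusted p = 0.0031), and all 3 calls were kept in the 20 alternative settings.

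CDK4 (chr12:57747727-57756013, minus strand), a D cyclin kinase, fell after BRM loss. It was at 233, 261 and 251 CPM in the parental libraries, at 189, 262 and 195 CPM in the BRG1 knockout and at 171, 123 and 146 CPM after BRM loss. The BRM knockout lay below both other groups, while BRG1 knockout replicate 2 reached above the parental range. The log2 fold change was -0.76 ± 0.17 after BRM loss (adjusted p = 0.0062 by edgeR) and -0.21 ± 0.17 after BRG1 loss (adjusted p = 0.36). In TPM, without TMM scaling, the BRG1 knockout stood lower, at 190 ± 20.5 against 294 ± 27.1 in the parental line (SD, n = 3), with no overlap. The difference between the knockouts in counts, 0.55 ± 0.17 (adjusted p = 0.023), was lost in 5 of the 20 settings, among them without BRG1 knockout replicate 2 (adjusted p = 0.075) and without BRM knockout replicate 2 (0.086) or 3 (0.072).

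CDK6 (chr7:92604921-92836594, minus strand), the other D cyclin kinase, was at 135, 181 and 173 CPM in the parental libraries. It was at 128, 113 and 307 CPM in the BRG1 knockout and at 127, 97.7 and 130 CPM after BRM loss. BRG1 knockout replicate 3 was the highest of all 9 libraries, and replicates 1 and 2 lay below the parental range, as did all 3 BRM knockout libraries. The log2 fold change was 0.16 ± 0.33 after BRG1 loss (adjusted p = 0.72 by edgeR) and -0.46 ± 0.33 after BRM loss (adjusted p = 0.30), and the difference between the knockouts was 0.63 ± 0.33 (adjusted p = 0.15). Without BRG1 knockout replicate 3 the sign after BRG1 loss turned, to -0.51 (adjusted p = 0.037), and after BRM loss the value was -0.56 (adjusted p = 0.016). With parental replicate 1 left out as well, the values were -0.64 (adjusted p = 0.0099) and -0.69 (adjusted p = 0.0042). The difference between the knockouts was 0.045 without BRG1 knockout replicate 3 (adjusted p = 0.85). Over the 20 alternative settings that difference passed in 1. The value after BRM loss passed in 4 and ranged from -0.81 to -0.34 over all of them. With all 9 libraries and an offset for transcript length, the value after BRG1 loss was also negative, at -0.31 (adjusted p = 0.45).

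The short CDK6 transcript from the upstream start (CDK6-202) took 38.2%, 17.9% and 21.1% of CDK6 TPM in the parental libraries. It was listed at 0 in all 3 BRG1 knockout libraries and took 0%, 29.7% and 6.90% in the BRM knockout. The long transcript CDK6-201, which starts downstream, took 95.6% to 100% in the BRG1 knockout against 59.4% to 74.0% in the parental libraries. A value of 0 from Salmon can be a choice of the model between overlapping transcripts, and no test was made of it. CDK4 held 91.2% ± 0.13 of the summed CDK4 and CDK6 TPM in the parental libraries, 90.4% ± 5.55 in the BRG1 knockout and 90.5% ± 1.69 in the BRM knockout (SD, n = 3). The BRG1 knockout range was 84.1% to 94.6%, and its difference from the parental share was -0.83 percentage points (p = 1 in a two-sided exact permutation test), or 2.31 points without replicate 3.

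RB1 (chr13:48303726-48599436, plus strand) fell after BRM loss. Its level was 82.5, 115 and 108 CPM in the parental libraries, 54.6, 45.2 and 107 CPM in the BRG1 knockout and 47.1, 44.7 and 41.6 CPM in the BRM knockout. All BRM knockout libraries lay below the parental range, as did BRG1 knockout replicates 1 and 2, whereas BRG1 knockout replicate 3 lay within it. The log2 fold change was -1.20 ± 0.28 after BRM loss (adjusted p = 0.0073 by edgeR, kept in all 20 settings). After BRG1 loss it was -0.56 ± 0.28 (adjusted p = 0.13), and between the knockouts it was 0.63 ± 0.28 (adjusted p = 0.087). Without BRG1 knockout replicate 3 the value after BRG1 loss was -1.10 (adjusted p = 4.8e-04), and with parental replicate 1 also left out it was -1.25 (adjusted p = 1.0e-04). The difference between the knockouts was 0.19 without BRG1 knockout replicate 3 (adjusted p = 0.39), and it passed without replicate 2 (0.87, adjusted p = 0.023).

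**Figure D3:**
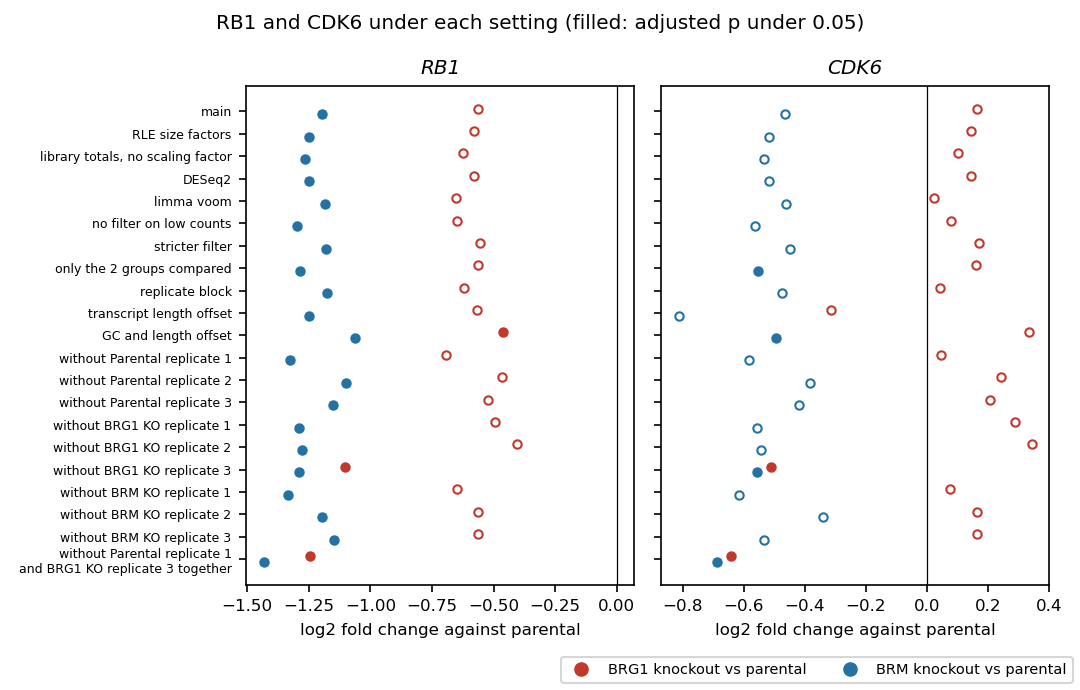
Log2 fold change of RB1 (left) and CDK6 (right) against the parental line under the setting used throughout (top line) and 20 alternatives, with filled points where the adjusted p was under 0.05. RB1 is filled for the BRM knockout on every line, and for the BRG1 knockout both genes turn to lower, filled values where BRG1 knockout replicate 3 is left out (-1.10 and -0.51).

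CDKN1B (chr12:12715058-12722371, plus strand), the gene of p27, differed little between the genotypes. It was at 37.0, 29.6 and 38.2 CPM in the parental libraries, at 46.8, 41.04 and 45.2 CPM in the BRG1 knockout and at 44.1, 47.2 and 52.2 CPM after BRM loss. In CPM every knockout library lay above every parental library, while in TPM the BRG1 knockout (18.7 to 26.9) overlapped the parental range (17.8 to 22.7). CDKN1B rose after BRM loss with a log2 fold change of 0.45 ± 0.15 (adjusted p = 0.032 by edgeR). That call was lost in 14 of the 20 alternative settings, with log2 fold changes of 0.35 to 0.52 over all of them, among them each setting without 1 library other than parental replicate 1. After BRG1 loss the log2 fold change was 0.35 ± 0.15 (adjusted p = 0.080). The knockouts did not differ beyond their spread, at -0.11 ± 0.15 (adjusted p = 0.58).

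CDKN2B (chr9:22002903-22009363, minus strand), the gene of p15, was the member that rose after BRG1 loss. Its level was 83.9, 64.2 and 65.0 CPM in the parental libraries, 143, 131 and 131 CPM in the BRG1 knockout and 67.3, 73.2 and 89.4 CPM in the BRM knockout. The BRG1 knockout lay above both other groups, which overlapped. The log2 fold change was 0.93 ± 0.16 after BRG1 loss (adjusted p = 9.6e-04 by edgeR) and 0.11 ± 0.16 after BRM loss (adjusted p = 0.62). The knockouts differed by 0.82 ± 0.16, BRG1 minus BRM (adjusted p = 0.0018), and both calls were kept in the 20 alternative settings. In TPM the BRG1 knockout, at 53.6 to 82.0, overlapped the parental range of 39.8 to 55.7. A transcript annotated as a retained intron (CDKN2B-203) held 29.3% to 43.8% of CDKN2B TPM in the libraries, and coding TPM alone did not overlap, at 37.9 to 53.4 against 25.7 to 31.3.

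**Figure D4:**
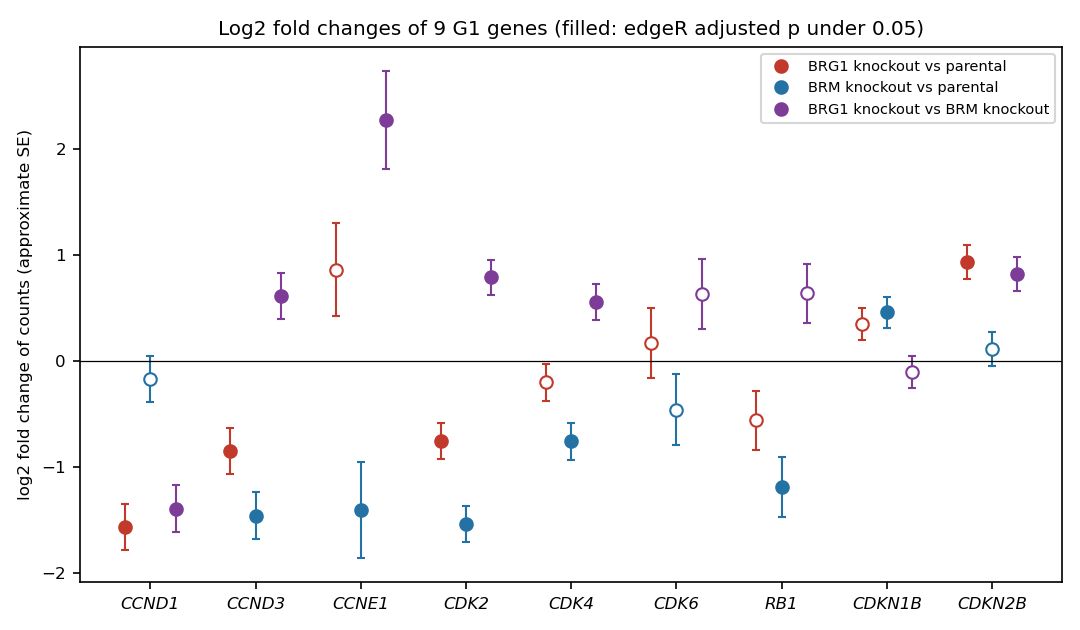
Log2 fold change of counts for the 9 tested members in the 3 comparisons, with the approximate SE as a whisker and filled points where the adjusted p was under 0.05. CCND1 is the 1 member called lower after BRG1 loss but not after BRM loss (-1.57 against -0.17), and CCNE1 has the widest gap between the knockouts (2.27).

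Per length, the members spanned a wide range in the parental line. CCND1 (359 ± 40.5 TPM) and CDK4 (294 ± 27.1 TPM) led, followed by CDK2 (79.4 ± 9.55 TPM), with no overlap between these neighbours (SD, n = 3). CCND3 (54.2 ± 5.94 TPM) overlapped CDKN2B (45.8 ± 8.69 TPM), and RB1 (31.99 ± 6.46 TPM) overlapped CDK6 (28.2 ± 2.77 TPM). CDKN1B (20.5 ± 2.48 TPM), CCNE1 (6.26 ± 2.23 TPM) and CCND2 (0.0092 ± 0.011 TPM) came last. In the BRG1 knockout CDK4 (190 ± 20.5 TPM) was first, and CCND1 (83.7 ± 8.33 TPM) overlapped CDKN2B (68.4 ± 14.2 TPM). In the BRM knockout CCND1 (278 ± 39.8 TPM) was again first, before CDK4 (157 ± 29.4 TPM), and CDKN1B (27.1 ± 2.05 TPM) overlapped CDK2 (26.3 ± 4.96 TPM).

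Set against their kinases, the mean level of both inhibitors was higher in both knockouts. CDKN2B amounted to 14.4 ± 4.11 TPM per 100 TPM of CDK4 and CDK6 in the parental libraries, 32.4 ± 5.60 in the BRG1 knockout and 27.6 ± 7.78 in the BRM knockout (SD, n = 3). The BRM knockout, at 19.1 to 34.4, overlapped the parental range of 11.96 to 19.2. CDKN1B amounted to 26.2 ± 4.73 TPM per 100 TPM of CDK2 in the parental libraries, 56.6 ± 12.9 in the BRG1 knockout and 107 ± 29.2 in the BRM knockout, with no overlap between the groups. These ratios were chosen after the values were seen and carry no test, and RNA ratios are not ratios of protein.

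Of the 5 other CDK inhibitors, 1 rose and 1 fell after BRG1 loss, shares close to those of all genes (21.6% higher and 21.9% lower), and 3 did not pass. After BRM loss 2 rose and 2 fell, where 21% of all genes were higher and 16.4% lower. CDKN1A, the gene of p21 and a target of p53, was at 77.3, 42.3 and 43.9 CPM in the parental libraries, at 70.0, 66.9 and 26.5 CPM in the BRG1 knockout and at 363, 294 and 408 CPM after BRM loss. It rose after BRM loss with a log2 fold change of 2.70 ± 0.37 (adjusted p = 5.0e-04 by edgeR), and all 3 libraries stood above every other. CDKN1C, the gene of p57, rose after BRM loss by 2.06 ± 0.32 on the log2 scale from a low level (1.84 ± 0.48 to 7.67 ± 2.76 CPM), and CDKN2C, the gene of p18, had a log2 fold change of -1.86 ± 0.26 (adjusted p = 7.7e-04 and 4.6e-04 by edgeR). CDKN2D, the gene of p19, fell after BRG1 loss with -1.54 ± 0.37 (adjusted p = 0.0061 by edgeR).

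Of the 4 neighbours of CDKN2B on 9p21, CDKN2A rose after BRG1 loss from 131 ± 18.6 to 245 ± 80.4 CPM, with a log2 fold change of 0.91 ± 0.22 (adjusted p = 0.0073 by edgeR). After BRM loss it stood at 85.0 ± 11.2 CPM, a log2 fold change of -0.62 ± 0.22 (adjusted p = 0.049), and that call was lost in 8 of 20 settings, among them without any 1 of the 6 libraries compared. MTAP, an enzyme of methionine salvage, fell after BRG1 loss with -0.52 ± 0.15 (adjusted p = 0.017), a call lost without parental replicate 2 or 3 (adjusted p up to 0.064). With an offset for transcript length the value was -1.28 (adjusted p = 0.0013). DMRTA1 did not pass in either knockout (0.33 ± 0.26 and -0.047 ± 0.26). The antisense gene CDKN2B-AS1 had 1.48 ± 0.36 CPM in the parental line, 1.74 ± 0.49 CPM in the BRG1 knockout and 0.82 ± 0.095 CPM in the BRM knockout, and did not pass against the parental line (adjusted p = 0.59 and 0.079). It overlaps CDKN2B on the other strand, and the labels do not say whether counting used strand.

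TGF-beta raises CDKN2B transcription through SMAD factors in epithelial cells. Of 9 genes of that input, 5 rose and 1 fell after BRG1 loss, against 21.6% higher and 21.9% lower among all genes. After BRM loss 2 rose and 3 fell, against 21% and 16.4%. The ligand TGFB1 went from 47.1 ± 11.8 CPM to 278 ± 77.3 CPM after BRG1 loss, TGFB2 from 31.3 ± 5.13 to 183 ± 52.7 CPM and TGFB3 from 8.13 ± 2.41 to 86.4 ± 10.7 CPM. Their log2 fold changes were 2.56 ± 0.25, 2.55 ± 0.25 and 3.41 ± 0.22 (highest adjusted p = 2.8e-05 by edgeR). SMAD3, a transcription factor of the pathway, fell after BRG1 loss (-0.82 ± 0.20, adjusted p = 0.0076). After BRM loss TGFB1 rose (1.64 ± 0.24), while TGFB2 (-1.09 ± 0.24), TGFB3 (-0.93 ± 0.21) and the receptor gene TGFBR1 (-1.62 ± 0.20) fell. FOXO factors, which can activate CDKN1B, were measured by 4 genes. In each knockout 2 of them rose, where 21.6% of all genes were higher after BRG1 loss and 21% after BRM loss: FOXO4 (1.75 ± 0.42 and 1.99 ± 0.42) and FOXO6 (1.97 ± 0.60 and 2.46 ± 0.61). The rise of FOXO6 after BRG1 loss was lost without any 1 of parental replicates 2 and 3 and BRG1 knockout replicates 1 and 2 (adjusted p up to 0.10), and that of FOXO4 with an offset for transcript length (0.064). The rise of FOXO6 after BRM loss was lost with no filter on low counts (adjusted p = 0.050). Without parental replicate 1 the 4 values were higher: 2.45 and 2.69 for FOXO4, and 2.81 and 3.31 for FOXO6.

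Downstream of RB1, the 20 genes of S phase known to be driven by E2F were lower after BRM loss throughout. All 20 fell, with a median log2 fold change of -2.13, against 0.093 over all genes, of which 16.4% were called lower. After BRG1 loss 7 of 20 fell and none rose, with a median of -0.60, where 21.9% of all genes were called lower. The number called after BRG1 loss was 6 to 10 over the alternative settings, and 10 without BRG1 knockout replicate 3. After BRM loss it was 19 or 20. Between the knockouts, 19 of 20 were higher in the BRG1 knockout, where 21.6% of all genes were called higher. TYMS, which makes thymidylate, was at 96.3 ± 19.3 CPM in the parental line, 157 ± 49.9 CPM in the BRG1 knockout and 9.89 ± 5.60 CPM in the BRM knockout. MCM10, a replication factor, was at 45.4 ± 9.60, 21.1 ± 6.87 and 3.21 ± 1.95 CPM, and the thymidine kinase TK1 at 218 ± 37.3, 78.5 ± 27.3 and 21.05 ± 7.84 CPM.

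Among the pocket proteins, E2F and DP factors, 1 of 12 rose and 4 fell after BRG1 loss, against 21.6% higher and 21.9% lower among all genes. After BRM loss 2 rose and 8 fell, against 21% and 16.4%. E2F1 itself was at 57.9 ± 7.29 CPM in the parental line, 48.9 ± 15.5 CPM in the BRG1 knockout and 8.79 ± 7.26 CPM after BRM loss. The fall after BRM loss passed (-2.72 ± 0.50, adjusted p = 0.0025 by edgeR), and the value after BRG1 loss did not (-0.24 ± 0.46, adjusted p = 0.70). The pocket protein RBL1 (p107) fell after BRM loss (-2.13 ± 0.40). Its fall after BRG1 loss (-1.17 ± 0.39, adjusted p = 0.031) was lost in 6 of 20 settings, among them without parental replicate 2 or 3 or BRG1 knockout replicate 1 or 2 (adjusted p up to 0.099). Without BRG1 knockout replicate 3 it was -1.78. TFDP2, a partner of E2F factors, rose after BRG1 loss, from 47.9 ± 2.87 to 170 ± 36.3 CPM (1.83 ± 0.19, adjusted p = 3.2e-05). With an offset for transcript length its value after BRG1 loss was 0.85 (adjusted p = 0.0013). TFDP2 also rose after BRM loss, to 96.1 ± 15.5 CPM (1.01 ± 0.18, adjusted p = 0.0019 by edgeR).

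**Figure D5:**
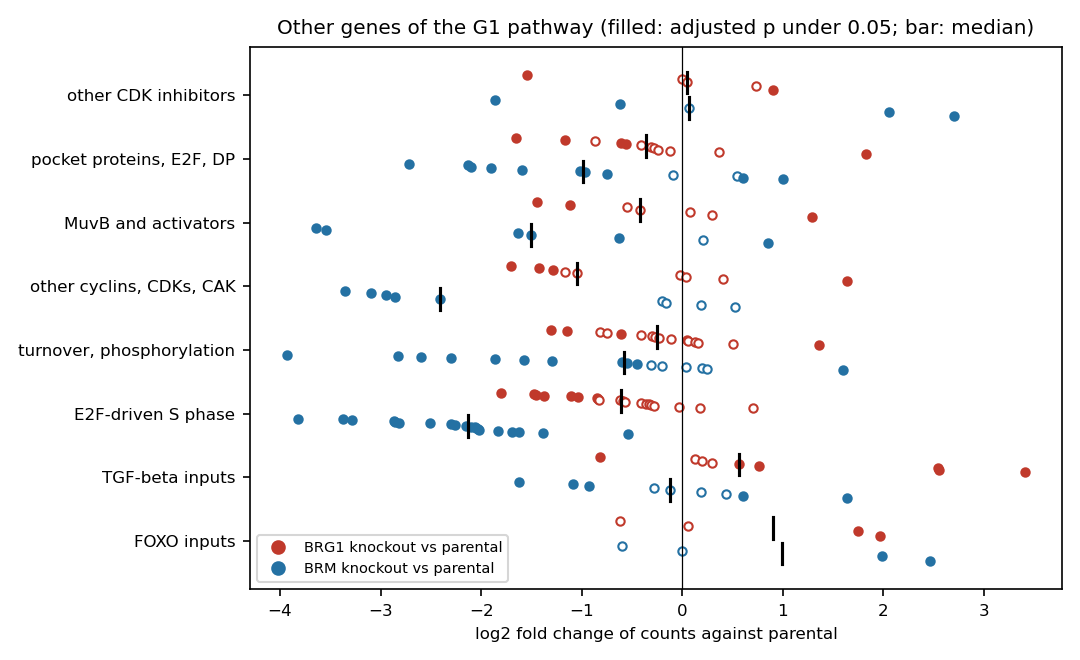
Log2 fold change of counts against the parental line for the other genes of the G1 pathway, 1 point per gene in 8 lists, filled where the adjusted p was under 0.05, with a bar at each list's median. All 20 S-phase genes driven by E2F are lower after BRM loss (median -2.13), and the TGF-beta inputs to CDKN2B include 5 genes that rose after BRG1 loss.

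MuvB, the complex that represses or activates late cell cycle genes with changing partners, had 1 of 7 listed genes higher and 2 lower after BRG1 loss, and 1 higher and 5 lower after BRM loss. As above, the shares among all genes were 21.6% higher and 21.9% lower after BRG1 loss and 21% and 16.4% after BRM loss, for this list and the next 2. Its activating partners FOXM1 (-3.64 ± 0.45) and MYBL2 (-3.55 ± 0.48) fell after BRM loss (adjusted p = 3.6e-04 and 5.6e-04 by edgeR). After BRG1 loss FOXM1 fell as well (-1.44 ± 0.41, adjusted p = 0.017), a call lost in 4 of 20 settings, and MYBL2 did not pass (-0.42 ± 0.43, adjusted p = 0.46). Of 9 tested other cyclins, CDKs and genes of the CDK-activating kinase, 1 rose and 3 fell after BRG1 loss, and 5 fell after BRM loss. CCNA2, the S-phase cyclin, had a log2 fold change of -3.35 ± 0.49 after BRM loss (adjusted p = 8.1e-04), and the second cyclin E gene, CCNE2, of -2.95 ± 0.55 (adjusted p = 0.0027). After BRG1 loss CCNE2 fell too (-1.70 ± 0.52, adjusted p = 0.024), a call lost in 5 of 20 settings, among them without parental replicate 2 or 3 or BRG1 knockout replicate 1 or 2 (adjusted p up to 0.098). The other falls after BRG1 loss were CCNA2 (-1.42 ± 0.45, adjusted p = 0.029 by edgeR) and CDK1 (-1.29 ± 0.45, adjusted p = 0.041). They were lost in 6 and 8 of 20 settings (adjusted p up to 0.11 and 0.13). Leaving out 1 BRM knockout library moved several of the values after BRM loss further from 0: without replicate 1, E2F1 was -3.75, CCNE2 -4.02 and MYBL2 -4.25, and without replicate 2, CCNA2 was -4.20 and FOXM1 -4.31. In the list of turnover and phosphorylation control, 1 of 16 rose and 3 fell after BRG1 loss, and 1 rose and 10 fell after BRM loss. FBXO31, an F-box protein that targets cyclin D1 for degradation, was the gene that rose in both, from 23.5 ± 3.35 CPM to 60.5 ± 5.39 and 71.4 ± 2.40 CPM. PKMYT1, a kinase that restrains CDK1, fell in both, by -1.30 ± 0.31 after BRG1 loss (adjusted p = 0.0067 by edgeR) and -3.93 ± 0.35 after BRM loss.

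For each member the 2 protein-coding genes with the most similar log2 CPM over the 9 libraries were found among about 10141 genes, as a description. CCND1 was followed most closely by TMEM41A (Pearson r = 0.997) and the keratin gene KRT8 (0.990), which is also among the epithelial markers whose sum fell after BRG1 loss. CDK2 was followed by the replication genes DSCC1 (0.996) and GINS1 (0.995), and CDK4 by RNASEH2C (0.995) and RAN (0.993). RB1 was closest to SMCHD1 (0.990) and CLEC16A (0.985), and CDKN2B to C9orf85 (0.983) and IFITM2 (0.977). CCND3 was closest to EED (0.983) and ARFRP1 (0.981), CCNE1 to GPR89A (0.963) and FMR1NB (0.959), CDK6 to ZFX (0.967) and CAPRIN1 (0.966), and CDKN1B to MAN2C1 (0.961) and GABBR1 (0.954). The 9 points fall into 3 genotypes and share the depth and scaling of their libraries, so such correlations mostly follow the group means.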

How the data were processed

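RNA-seq was measured in 9 libraries of H358, 3 per genotype, and samples were grouped by their labels. Each deposited file holds estimated counts per transcript (the NumReads column), made by the authors with Salmon and not normalized, per the file headers. TPM was deposited beside them, as the authors' Salmon run wrote it (per the file headers), with each library scaled to 1 total. The effective lengths are in the same deposited files, a number of bases per transcript that Salmon fitted. Salmon, DESeq2 and hg38 are named in the submitters' processing notes. No version, annotation, strand or bias setting is given there.

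Of 203835 transcripts, 203746 were assigned to GENCODE 29 genes (202888 with the same version), and the 89 others (up to 0.0193% of the reads in a library) were left out. Gene sums were rounded and went into edgeR 4.0.16 (R 4.3.3): filterByExpr by group, TMM, 1 mean per group over all 9 libraries, glmQLFit (robust; 6 residual degrees of freedom, common biological coefficient of variation 0.253) and the two-sided quasi-likelihood F test, with Benjamini-Hochberg adjustment over 18205 genes and a threshold of 0.05. The approximate SE was computed from the log2 fold change, its absolute value over the root of F. Shares of TPM were compared with an exact permutation test (scipy 1.17.1). The scripts were tested on simulated data.

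The members, gene lists, tests and alternatives were chosen with earlier results of these data known. Named are all members, SMARCA4, SMARCA2 and the 9p21 neighbours, and genes drawn from the up to 4 called genes per list and comparison with the largest change whose mean reached 1 log2 CPM. For each member the 2 most similar protein-coding genes whose mean reached 3 log2 CPM are also named. EPCAM, CDH1 and KRT8, CD3D and MS4A1 were named as examples of their marker lists. The fibroblast markers, the endothelial markers and CD68 were named to show what made up the marker sums. The 20 alternatives were other scalings, filters and tests (DESeq2 1.42.0, limma 3.58.1), a block, offsets for length and GC, and left-out libraries.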

Additional observations from a re-analysis of the deposited data

How the results depend on the processing

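Over 9 tested members, 3 comparisons and 20 alternative settings, 490 of 540 values kept their direction and their side of the threshold, 35 lost a call, 11 gained one and 4 changed sign. The 4 were CDK6 after BRG1 loss (-0.31 with the offset for transcript length, -0.51 without BRG1 knockout replicate 3, -0.64 without that library and parental replicate 1) and CDKN2B after BRM loss (-0.014 without BRM knockout replicate 3), and the cause was not tested. With 1 library left out, CDK6 after BRG1 loss was -0.51 to 0.34 and CDKN2B after BRM loss -0.014 to 0.25. Among other named genes, SMARCA4 after BRM loss was -0.27 with the GC and length offset (adjusted p = 0.045 by edgeR, a call of lower). Its value without that offset was 0.13 (adjusted p = 0.46). DMRTA1, which did not pass in any setting, changed sign in 4: after BRM loss to 0.046 with that offset, 0.042 without parental replicate 2 and 0.065 without BRM knockout replicate 2 (-0.25 to 0.065 with 1 library left out), and after BRG1 loss to -0.079 without parental replicate 1 and BRG1 knockout replicate 3.

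No member was higher after BRM loss (0, against 1) with library totals, DESeq2, no filter, only the 2 groups in the fit, the transcript length offset, or without parental replicate 1 and BRG1 knockout replicate 3; leaving out 1 library gave 0 to 1. Members higher in the BRG1 than in the BRM knockout numbered 3, against 5, with only the 2 groups or the transcript length offset, and 3 to 5 with 1 library left out. Members higher after BRG1 loss numbered 2, against 1, with the GC and length offset, where RB1 (-0.46, adjusted p = 0.042 by edgeR) and CDKN1B (0.37, adjusted p = 0.044) also passed. Members lower after BRG1 loss numbered 5, against 3, without parental replicate 1 and BRG1 knockout replicate 3, and 3 to 5 with 1 library left out. Over all genes, the number higher after BRM loss was 2457 to 4033 with 1 library left out, against 3814, the lowest without parental replicate 2. The CDK4 share after BRG1 loss minus parental was -2.94 to 2.31 percentage points with 1 library left out, the highest without BRG1 knockout replicate 3.

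The labels share replicate numbers across genotypes. Deviations of same-numbered libraries correlated at -0.079 to 0.17 (9 pairs) and those of other pairs at -0.15 to 0.12 (18 pairs). No clear pairing by number was seen, but 3 libraries per genotype cannot exclude it. With the replicate block CCNE1 after BRM loss was -1.44 (adjusted p = 0.053 by edgeR), and no other member's call changed under the block. CDKN2A after BRM loss also lost its call there.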

Other observations

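Several members overlap genes on the other strand, and where counting ignores strand their reads cannot be told apart, so the values of the overlapping genes are given here. MARCH9, a ubiquitin ligase gene that overlaps CDK4, was at 19.8 ± 7.39 CPM in the parental line, 6.50 ± 1.10 CPM in the BRG1 knockout and 40.3 ± 4.16 CPM in the BRM knockout (SD, n = 3). It fell after BRG1 loss with a log2 fold change of -1.61 ± 0.25 and rose after BRM loss with 1.02 ± 0.25 (adjusted p = 5.4e-04 and 0.0081 by edgeR), whereas CDK4 fell after BRM loss (-0.76). TSPAN31, which also overlaps CDK4, was at 30.1 ± 4.55, 30.7 ± 3.78 and 35.5 ± 1.64 CPM and did not pass against the parental line (adjusted p = 0.90 and 0.26).

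RCBTB2, which overlaps RB1, was at 3.47 ± 0.55 CPM in the parental line, 9.02 ± 1.95 CPM in the BRG1 knockout and 2.85 ± 0.70 CPM in the BRM knockout, and rose after BRG1 loss (1.37 ± 0.27, adjusted p = 0.0022 by edgeR). LPAR6, a lysophosphatidic acid receptor gene within RB1, fell after BRG1 loss (-3.50 ± 0.65, adjusted p = 0.0014) from 1.08 ± 0.52 to 0.093 ± 0.073 CPM. LTO1, beside CCND1, was at 18.9 ± 1.13, 16.6 ± 2.82 and 17.9 ± 1.79 CPM and did not pass in either knockout (adjusted p = 0.40 and 0.73). PMEL, which overlaps CDK2, fell after BRG1 loss (-1.13 ± 0.34, adjusted p = 0.019) from 1.54 ± 0.31 to 0.70 ± 0.17 CPM. These genes were chosen for their position, after the members' values were seen.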
